A study of Mus musculus with 3 samples.

Results

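The genes described here are 10 members of the bone morphogenetic protein (BMP) system, taken by name from the 27998 genes of the mouse heart matrices: the ligands Bmp2, Bmp4, Bmp6 and Gdf10, the secreted modulator Bmper, the pseudoreceptor Bambi, the inhibitory SMAD Smad6, and the target genes Id1, Id2 and Id3. The rule that names them uses no measured value, but the members were chosen with earlier results of these data known. Single-cell RNA was measured in unselected non-cardiomyocytes from the ventricles of wild-type C57BL/6JJcl mice, in 3 phases of pressure overload. The healthy library came from control hearts, and the other libraries came from hearts 2 weeks (adaptive hypertrophy) and 12 weeks (heart failure) after transverse aortic constriction (TAC), a surgical narrowing of the aorta performed in male mice at 8 weeks of age. Each phase was 1 library, and how many hearts each held is not given in the sources used here. Phase and library therefore cannot be told apart, no test between phases was possible, and every interval below is a 95% interval that covers counting error only.

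BMPs are secreted ligands of the TGF-β superfamily. They bind complexes of type I and type II receptors, which phosphorylate SMAD1, SMAD5 and SMAD9, and these enter the nucleus with SMAD4 and switch on target genes. The Id genes are the best known of those targets and encode helix-loop-helix proteins that bind basic helix-loop-helix transcription factors and keep them off DNA. Smad6 and Bambi are targets that also damp the pathway, and in endothelium circulating BMP9 and BMP10 signal through ALK1 (Acvrl1) and endoglin (Eng).

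To show the upstream sequence of members whose levels differed between cell types or phases below, stretches before the transcription start were read from RefSeq promoters (GRCm38.p6), which held 7 of the 10 members; Id1, Bmp2 and Bambi had no entry. Capitals mark 3 short motifs on either strand. The first is GGCGCC, which reads the same on both strands. The second is GGAGCC, printed as GGCTCC where it lies on the opposite strand. The third is the SMAD box GTCT, printed as AGAC where it lies on the opposite strand. No marked motifs overlapped. Each line runs 5′ to 3′ on the strand of the gene and is given with its place on the build. For Id2 only the stretch outside annotated exons of the gene is shown, and for Id3 and Bmp6 the whole window overlapped an exon of another annotated transcript, so no letters are shown. The RefSeq start used for Id2 was 25096092, inside its annotated gene (chr12:25093799-25097140, minus strand). The Id2 stretch therefore lies before that start but within the annotated gene.
Smad6, the inhibitory SMAD high in arterial-like ECs, chr9:64022060-64022309, minus strand: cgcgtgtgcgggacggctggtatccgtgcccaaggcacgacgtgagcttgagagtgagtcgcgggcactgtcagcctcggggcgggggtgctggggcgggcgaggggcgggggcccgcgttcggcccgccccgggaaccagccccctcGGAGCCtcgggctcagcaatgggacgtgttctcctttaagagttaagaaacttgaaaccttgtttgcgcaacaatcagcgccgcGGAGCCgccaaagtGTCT
Id2, a target past 2-fold in 12-week ECs, chr12:25096254-25096342, minus strand: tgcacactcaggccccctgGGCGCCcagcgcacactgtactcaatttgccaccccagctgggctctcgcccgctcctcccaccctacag
Bmp4, the ligand of ECs and FBs, chr14:46390670-46390919, minus strand: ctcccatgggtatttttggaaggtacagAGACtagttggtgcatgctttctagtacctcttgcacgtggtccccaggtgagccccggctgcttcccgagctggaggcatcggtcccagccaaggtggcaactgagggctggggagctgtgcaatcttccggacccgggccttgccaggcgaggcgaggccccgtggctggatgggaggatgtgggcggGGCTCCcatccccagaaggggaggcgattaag
Gdf10, the ligand highest in 2-week FBs, chr14:33923337-33923586, plus strand: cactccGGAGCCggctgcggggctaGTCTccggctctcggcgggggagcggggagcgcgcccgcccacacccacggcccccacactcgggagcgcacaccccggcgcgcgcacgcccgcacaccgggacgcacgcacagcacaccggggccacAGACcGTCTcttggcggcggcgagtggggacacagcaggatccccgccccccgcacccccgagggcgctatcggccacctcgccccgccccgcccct
Over the 250 bases before the start, GGCGCC was present in 9.59% of all 32851 promoters, GGAGCC in 26.0% and GTCT in 82.9%. Smad6 held GGAGCC at 2 places, from -102 to -97 and from -18 to -13. Id2 held GGCGCC from -231 to -226 and GGAGCC from -88 to -83, and Id3 held the reverse of GGAGCC from -187 to -182. The GTCT letters were present in all 7 members and in most promoters of the table. A match describes the letters only.

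The libraries held 3892, 2231 and 792 cells of at least 200 genes in the healthy, 2-week and 12-week hearts, with 12287823, 4465929 and 1712728 unique molecular identifiers (UMIs, each 1 captured transcript molecule). Cells were put in a class by summed markers that include no member: endothelial cells (ECs), fibroblasts (FBs), mural cells and blood cells. ECs numbered 1043, 1729 and 288, FBs 1252, 98 and 195, mural cells 401, 70 and 39, and blood cells 934, 188 and 158. Within each class its own 8 or 9 markers summed to 5731 to 24387 CPM (counts per 1000000 UMIs), and another class's list reached at most 1633 CPM, which was the EC list in mural cells. That list summed to 1420, 1633 and 956 CPM in mural cells, against 5731, 6856 and 7162 CPM in ECs. The part of EC transcripts in the mural levels below was not tested. Cell barcodes shared between libraries numbered 5 at most. Median UMIs per EC were 2226, 1516 and 1342, so levels are given as CPM of the summed UMIs of a class.

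**Figure D1:**
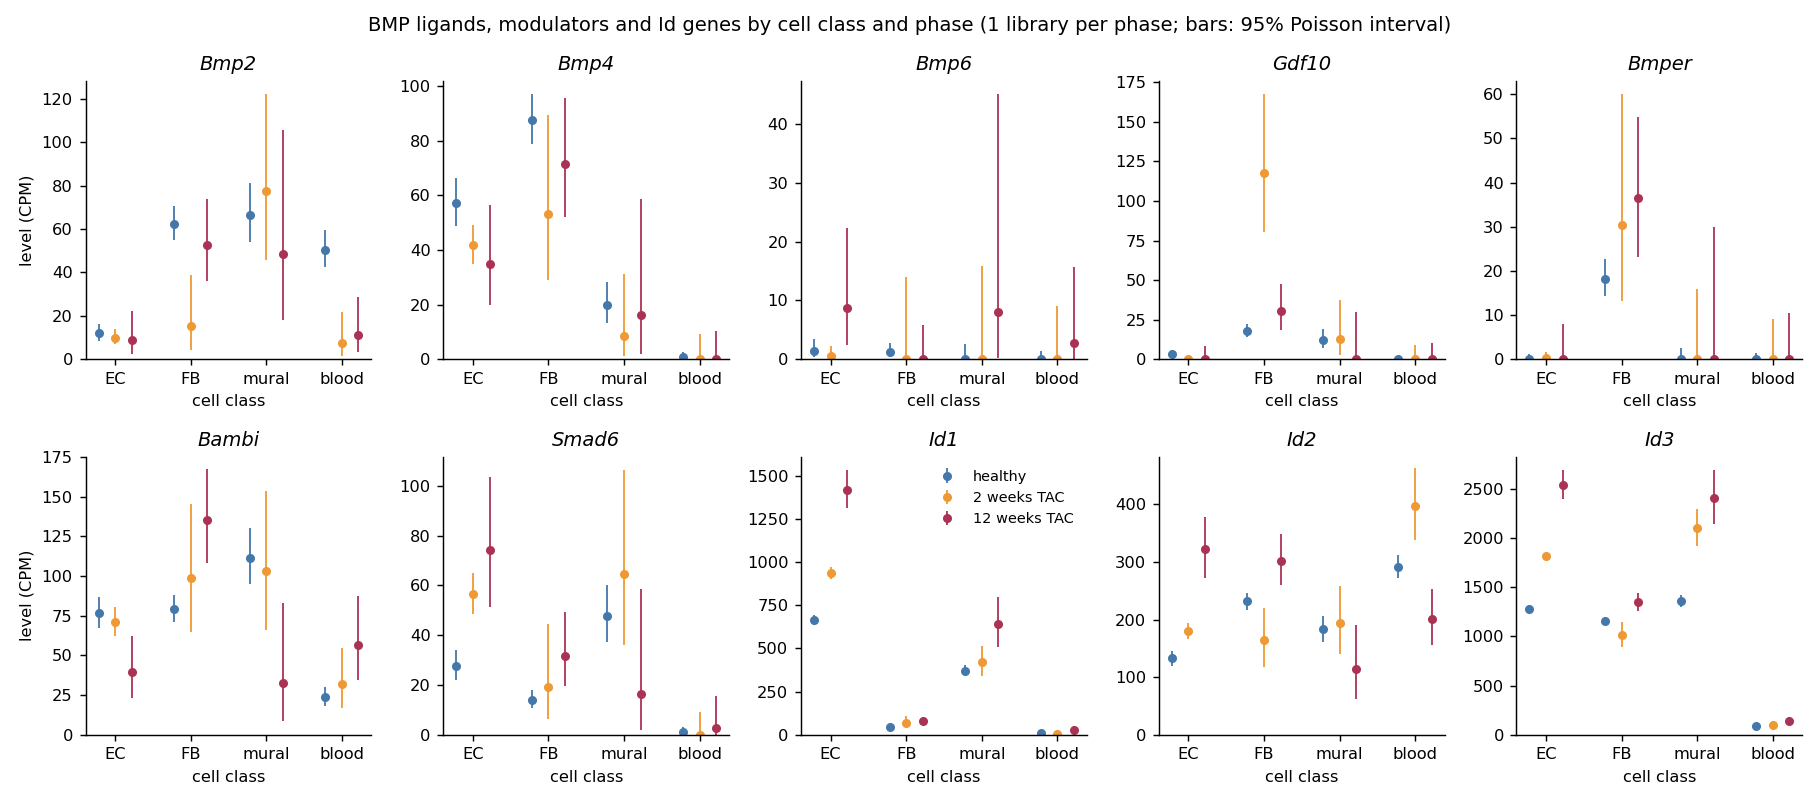
Level of each of the 10 genes (y axis, CPM of summed UMIs) in ECs, FBs, mural and blood cells (x axis) of the healthy, 2-week and 12-week libraries; bars are 95% Poisson intervals of the count. Id1 in ECs stands at 663, 937 and 1421 CPM with intervals that do not overlap, and Bmper is seen above 1 CPM in FBs alone.

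Among the ligands, Bmp4, which patterns mesoderm and vessels in development, was read in FBs and ECs. In FBs it stood at 87.6, 53.3 and 71.6 CPM in the healthy, 2-week and 12-week libraries (363, 14 and 45 UMIs). In ECs it stood at 57.1, 41.7 and 34.9 CPM (174, 139 and 16 UMIs). Both classes were highest in the healthy library. The EC ratio to healthy was 0.730 at 2 weeks (interval 0.580 to 0.917) and 0.611 at 12 weeks (0.341 to 1.02), and the FB ratios were 0.609 (0.329 to 1.03) and 0.817 (0.586 to 1.12). None of these 4 ratios reached 2-fold. Mural cells held 29, 2 and 2 UMIs and blood cells 2, 0 and 0, and in the 2-week blood cells the interval of the level reached up to 9.08 CPM.

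Bmp2, a ligand known for its part in valve and cushion formation, was lower in ECs than in mural cells in every library. It stood at 11.8, 9.89 and 8.72 CPM in ECs, at 62.5, 15.2 and 52.5 CPM in FBs and at 66.6, 77.4 and 48.6 CPM in mural cells. FBs exceeded ECs 5.29-fold in the healthy library (3.72 to 7.72) and 6.02-fold at 12 weeks (2.14 to 23.4), but only 1.54-fold at 2 weeks (0.396 to 4.33), where FBs held 4 Bmp2 UMIs. The 12-week ratio rests on 4 UMIs in ECs and 33 in FBs, 10 of them in 1 FB. With cells thinned to 1000 UMIs, 6.55% of healthy FBs (82 of 1252) and 1.22% of 12-week FBs (2 of 164, interval 0.148% to 4.34%) held a Bmp2 UMI. That is a ratio of 0.186 to healthy, against 0.840 by CPM, and it rests on those 2 cells. Before thinning the shares were 14.3% and 8.21%. Blood cells held 50.6 CPM in the healthy library (136 UMIs) and 7.39 and 11.3 CPM later (3 and 4 UMIs), ratios of 0.146 (0.0298 to 0.436) and 0.223 (0.0599 to 0.584). All 136 healthy UMIs lay in cells gated as macrophage or monocyte, in 78 of 878 such cells, and the later libraries held 167 and 57 of those cells. In that gate the level was 52.8, 8.17 and 24.3 CPM, and the 12-week interval (6.61 to 62.2) included the healthy value. In mural cells the smooth muscle gate was above the pericyte gate in the healthy library, at 82.1 against 33.9 CPM, and at 2 weeks, at 99.1 against 28.1 CPM. At 12 weeks the order was turned, with 19.8 against 177 CPM, on 2 and 4 UMIs.

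Gdf10, a divergent ligand also called BMP3b, was read in FBs and at lower counts in mural cells. It stood at 17.9 CPM in healthy FBs (74 UMIs), 118 CPM at 2 weeks (31 UMIs) and 30.2 CPM at 12 weeks (19 UMIs). The 2-week value was above both others with no overlap of intervals, 6.61-fold over healthy (4.20 to 10.2), while the 12-week ratio was 1.69 (0.965 to 2.83). The 31 UMIs came from 8 of 98 FBs, and 1 cell held 9 of them. Mural cells stood at 12.2 and 12.9 CPM in the healthy and 2-week libraries (18 and 3 UMIs) and held none at 12 weeks. Healthy FBs exceeded healthy mural cells by 1.46-fold, with an interval (0.863 to 2.60) that includes 1. Other values also differed between these FBs. Mitochondrial UMIs were 2.88%, 5.57% and 3.88% of FB UMIs, and 4 epicardial genes, all detected, summed to 35.2, 103 and 46.1 CPM. The part of the epicardial genes in the Gdf10 ratio was not tested, and with cells over 10% mitochondrial UMIs removed the ratio was 6.74. Blood cells held no Gdf10 UMI. Bmp6, made in other organs as a signal of iron load, gave 18 UMIs in all cells kept, at most 5 in any class and library. It stayed under the 20 UMIs required below for a count, and its EC ratio of 6.64 at 12 weeks (1.24 to 35.6) rests on 4 UMIs in each library.

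Of the modulators, Bmper, a secreted protein that binds BMPs and can damp or aid their signal, was read in FBs, at 18.1, 30.5 and 36.6 CPM (75, 8 and 23 UMIs). The remaining classes together held 1 Bmper UMI, in a 2-week EC. Healthy FBs were 18.4-fold above ECs, where no UMI was seen, with the 0 set at 3 counts over the class. The interval of that ratio reached down to 14.6. The FB ratio to healthy was 1.68 at 2 weeks (0.701 to 3.49) and 2.02 at 12 weeks (1.21 to 3.26).

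Bambi, a receptor-like protein without a kinase that competes for BMP and TGF-β receptors, stood on opposite sides of its healthy level in different classes at 12 weeks. In ECs it stood at 76.5, 70.8 and 39.2 CPM and in mural cells at 111, 103 and 32.4 CPM. In FBs it stood at 79.1, 99.0 and 135 CPM and in blood cells at 23.8, 32.01 and 56.4 CPM. The 12-week ratio was 0.513 in ECs (0.299 to 0.829) and 0.291 in mural cells (0.0783 to 0.759, on 4 UMIs), against 1.71 in FBs (1.33 to 2.17) and 2.37 in blood cells (1.36 to 3.97). None of the 4 intervals included 1. At 2 weeks all 4 intervals included 1. Of the 20 UMIs of 12-week blood cells, 13 lay in the 60 B cells, at 126 CPM, and the healthy library held 32 B cells with 1 UMI. The macrophage or monocyte gate stood at 24.1, 32.7 and 36.4 CPM, and its 12-week interval (13.4 to 79.3) included the healthy value. In FBs the 12-week ratio was 1.19 with each FB cluster held at its healthy share, and inside the 4 FB clusters with enough UMIs every interval included 1. In ECs the ratio held in that way was 0.657 over 5 clusters. Of 4 EC clusters with enough UMIs, 1 had an interval below 1, on 0 UMIs at 12 weeks. The venous-like EC cluster stood at 1.72 (0.505 to 4.73). As a share of cells with a UMI after thinning to 1000 UMIs, the mural ratio was 0.790.

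Smad6, which blocks receptor-activated SMADs of the BMP branch, was higher in ECs after TAC. It stood at 27.6 CPM in healthy ECs (84 UMIs), 56.4 CPM at 2 weeks (188 UMIs) and 74.1 CPM at 12 weeks (34 UMIs). The healthy interval (21.99 to 34.1) overlapped neither later interval, while the later ones overlapped each other. The ratios to healthy were 2.04 (1.57 to 2.68) and 2.69 (1.75 to 4.05). In FBs Smad6 stood at 13.99, 19.0 and 31.8 CPM, with a 12-week ratio of 2.27 (1.29 to 3.84), on 20 UMIs. In mural cells it stood at 47.6, 64.5 and 16.2 CPM, the last on 2 UMIs, and in blood cells at most 3 UMIs were seen in any library.

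The Id genes were the most frequent of the 10 in UMIs. Id1 was read mainly in ECs, at 663, 937 and 1421 CPM (2020, 3127 and 652 UMIs), and in mural cells, at 370, 421 and 640 CPM. FBs held 48.0, 68.5 and 77.9 CPM and blood cells 11.9, 4.92 and 28.2 CPM. The EC ratio to healthy was 1.41 at 2 weeks (1.34 to 1.496) and 2.14 at 12 weeks (1.96 to 2.34). In mural cells the ratios were 1.14 (0.909 to 1.41) and 1.73 (1.35 to 2.19). The share of ECs with an Id1 UMI, after every cell was thinned to 1000 UMIs, was 45.0%, 49.8% and 64.1%, against 65.8%, 61.3% and 72.9% before thinning. In mural cells the thinned share was 24.7%, 32.1% and 24.1%, so the 12-week value was 0.978 of healthy by share, on 29 cells, against 1.73 by CPM. Thinning left out 440 ECs at 2 weeks and 96 at 12 weeks that were shallower. In blood cells, at that same depth, the thinned share was 1.61%, 0 and 5.56%, and in FBs it was 4.39%, 7.14% and 7.32%.

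Id3 was read in ECs, FBs and mural cells at like levels in the healthy library, and FBs were below the other two later. In ECs it stood at 1274, 1814 and 2540.5 CPM, in mural cells at 1356, 2098 and 2406 CPM and in FBs at 1160, 1012 and 1352 CPM. Blood cells held 90.7, 103 and 138 CPM. The EC ratios were 1.42 (1.37 to 1.48) and 1.99 (1.87 to 2.13), and the mural ratios 1.55 (1.40 to 1.71) and 1.77 (1.57 to 2.01). The share of mural cells with an Id3 UMI after thinning was 67.3%, 76.8% and 62.1%, a 12-week ratio of 0.922, so the 12-week direction in mural cells differed between CPM and share. The CPM ratios in FBs were 0.873 (0.769 to 0.988) and 1.17 (1.08 to 1.25).

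Id2, which also takes part in the making of innate lymphoid and natural killer cells, differed from Id1 and Id3 in where it was read. In blood cells it stood at 291, 396 and 200 CPM, in FBs at 232, 164 and 302 CPM, in mural cells at 183, 193 and 113 CPM and in ECs at 133, 180 and 322 CPM. ECs had the lowest level of the 4 classes in the healthy library and the highest at 12 weeks, where the FB value of 302 CPM lay inside the EC interval (273 to 379). The EC ratios were 1.36 (1.19 to 1.54) and 2.43 (2.00 to 2.94). The blood ratios were 1.36 (1.14 to 1.61) and 0.687 (0.531 to 0.877). Among blood cells of the healthy library, 10 cells gated as T or NK cell stood at 1115.5 CPM, cells gated as macrophage or monocyte at 293 CPM, and 32 cells gated as B cell held no UMI. The 12-week blood cells held 60 B cells and 19 T or NK cells beside 57 macrophages or monocytes, and the Id2 level of that last gate was 293, 395 and 291 CPM.

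**Figure D2:**
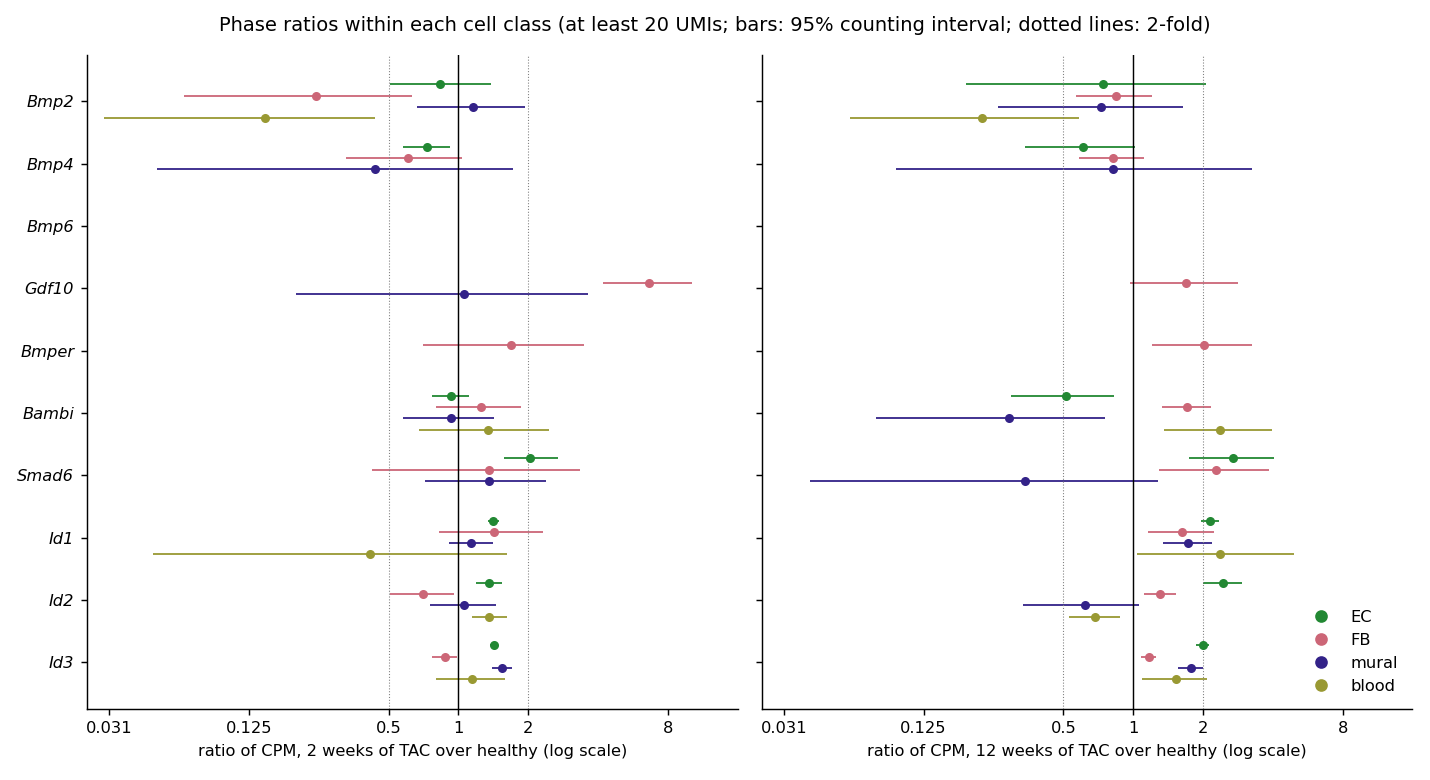
Ratio of CPM to the healthy library at 2 weeks (left) and 12 weeks (right) of TAC for each gene with at least 20 UMIs over both libraries, in ECs, FBs, mural and blood cells; the x axis is a log scale, bars are 95% counting intervals and dotted lines mark 2-fold. At 12 weeks Smad6, Id1 and Id2 in ECs lie past 2-fold, at 2.69, 2.14 and 2.43, and Bambi lies on opposite sides of 1 in ECs (0.513) and FBs (1.71).

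A ratio was counted when it was 2-fold or more either way with at least 20 UMIs over both libraries. In ECs 1 of 7 members with enough UMIs was counted at 2 weeks (Smad6) and 3 of 7 at 12 weeks (Smad6, Id1 and Id2, all higher), where over all genes 9.99% and 17.1% were counted. In FBs 2 of 9 were counted at 2 weeks (Gdf10 higher, Bmp2 lower), with 19.5% of all genes, and 2 of 9 at 12 weeks (Bmper and Smad6, both higher), with 13.4% of all genes. In mural cells 1 of 8 was counted at 2 weeks (Bmp4 lower, on 2 UMIs), with 16.6% of all genes, and 2 of 7 at 12 weeks (Bambi and Smad6 lower), with 23.7%. In blood cells 2 of 5 were counted at 2 weeks (Bmp2 and Id1 lower), with 23.6% of all genes, and 3 of 5 at 12 weeks (Bmp2 lower, Bambi and Id1 higher), with 26.4%. The Id1 ratios in blood cells were 0.414 (0.0481 to 1.62) and 2.37 (1.04 to 4.94), on 32, 2 and 10 UMIs in the 3 libraries. The 2-week interval of Id1 included 1. The median log2 ratio of the EC members was 0.44 at 2 weeks and 1.00 at 12 weeks, against 0.02 and 0.10 over all genes with enough UMIs. The 2-week Smad6 ratio in ECs fell under 2-fold, to 1.496 at the lowest, under 4 of the alternatives tried. The 12-week Smad6 ratio in FBs was 0.804 when taken as a share of thinned cells with a UMI. The Bmper ratio taken that way was 1.02, on 4 of 164 thinned 12-week FBs. With clusters held at their healthy share the Bmper ratio was 1.76, and the 12-week Id1 ratio in blood cells was 0.742 when blood cells were chosen by 2 markers (Ptprc and Itgam). In mural cells the intervals of Bmp4 at 2 weeks (0.0504 to 1.72) and Smad6 at 12 weeks (0.0404 to 1.28, on 2 UMIs) included 1, and with a gate of 5 marker UMIs and 90% these ratios turned to 2.27 and 1.95. Other values also differed between the ECs of the 3 libraries. A list of 13 genes known to respond to tissue dissociation summed to 26020, 21385 and 19106 CPM, haemoglobin genes to 103, 315 and 4373 CPM, and 7 cardiomyocyte genes to 777, 558 and 187 CPM, each list with all its genes detected. Mitochondrial UMIs were 2.61%, 2.82% and 2.61% of EC UMIs. The part of these in the EC ratios was not tested, except that with mitochondrial, ribosomal protein and haemoglobin genes left out of the totals the 12-week ratios of Id1, Id2 and Id3 were 2.11, 2.39 and 1.96.

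Between ECs and FBs of the same library, the largest step among the Id genes was in Id1. ECs exceeded FBs 13.8-fold (11.9 to 16.1), 13.7-fold (8.64 to 23.1) and 18.2-fold (13.6 to 24.9) in the healthy, 2-week and 12-week libraries. For Id3 the ratio was 1.099 (1.05 to 1.15), 1.79 (1.58 to 2.03) and 1.88 (1.72 to 2.06), and for Smad6 it was 1.97 (1.39 to 2.80), 2.96 (1.25 to 9.23) and 2.33 (1.30 to 4.27). Bambi was level between these classes in the healthy library, with a ratio of 0.966 (0.813 to 1.15), and at 12 weeks FBs were 3.45-fold above ECs (2.06 to 6.09). The median log2 ratio of ECs over FBs, over genes with at least 100 UMIs, was 0.05, 0.29 and 0.13 in the 3 libraries, so the later ratios are read against those shifts. Counted at 2-fold or more were 4 of 9 members in the healthy library (Id1 higher in ECs and Bmp2, Gdf10 and Bmper higher in FBs), 3 of 8 at 2 weeks and 6 of 8 at 12 weeks, where 33.8%, 35.1% and 33.8% of all genes were counted.

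ECs were next re-clustered with the members and the BMP pathway genes left out of the clustering, and clusters were named from marker lists only where those markers led. Of 12 clusters, 8 were named: clusters 0 and 3 capillary-like, 1 arteriolar-side capillary-like, 2 activated capillary-like, 4 venous-like, 5 arterial-like, 10 proliferative-like and 11 lymphatic-like. Interferon genes (Ifit1, Ifit3) led cluster 0 beside Car4 and Timp4. Cluster 7, led by Cytl1, Mgp and Gkn3, stayed unnamed although 7 of 8 arterial markers were detected in it. Clusters 6, 8 and 9, led by MHC class II, haemoglobin and cardiomyocyte genes, were unnamed as well. No cluster could be named endocardial.

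**Figure D3:**
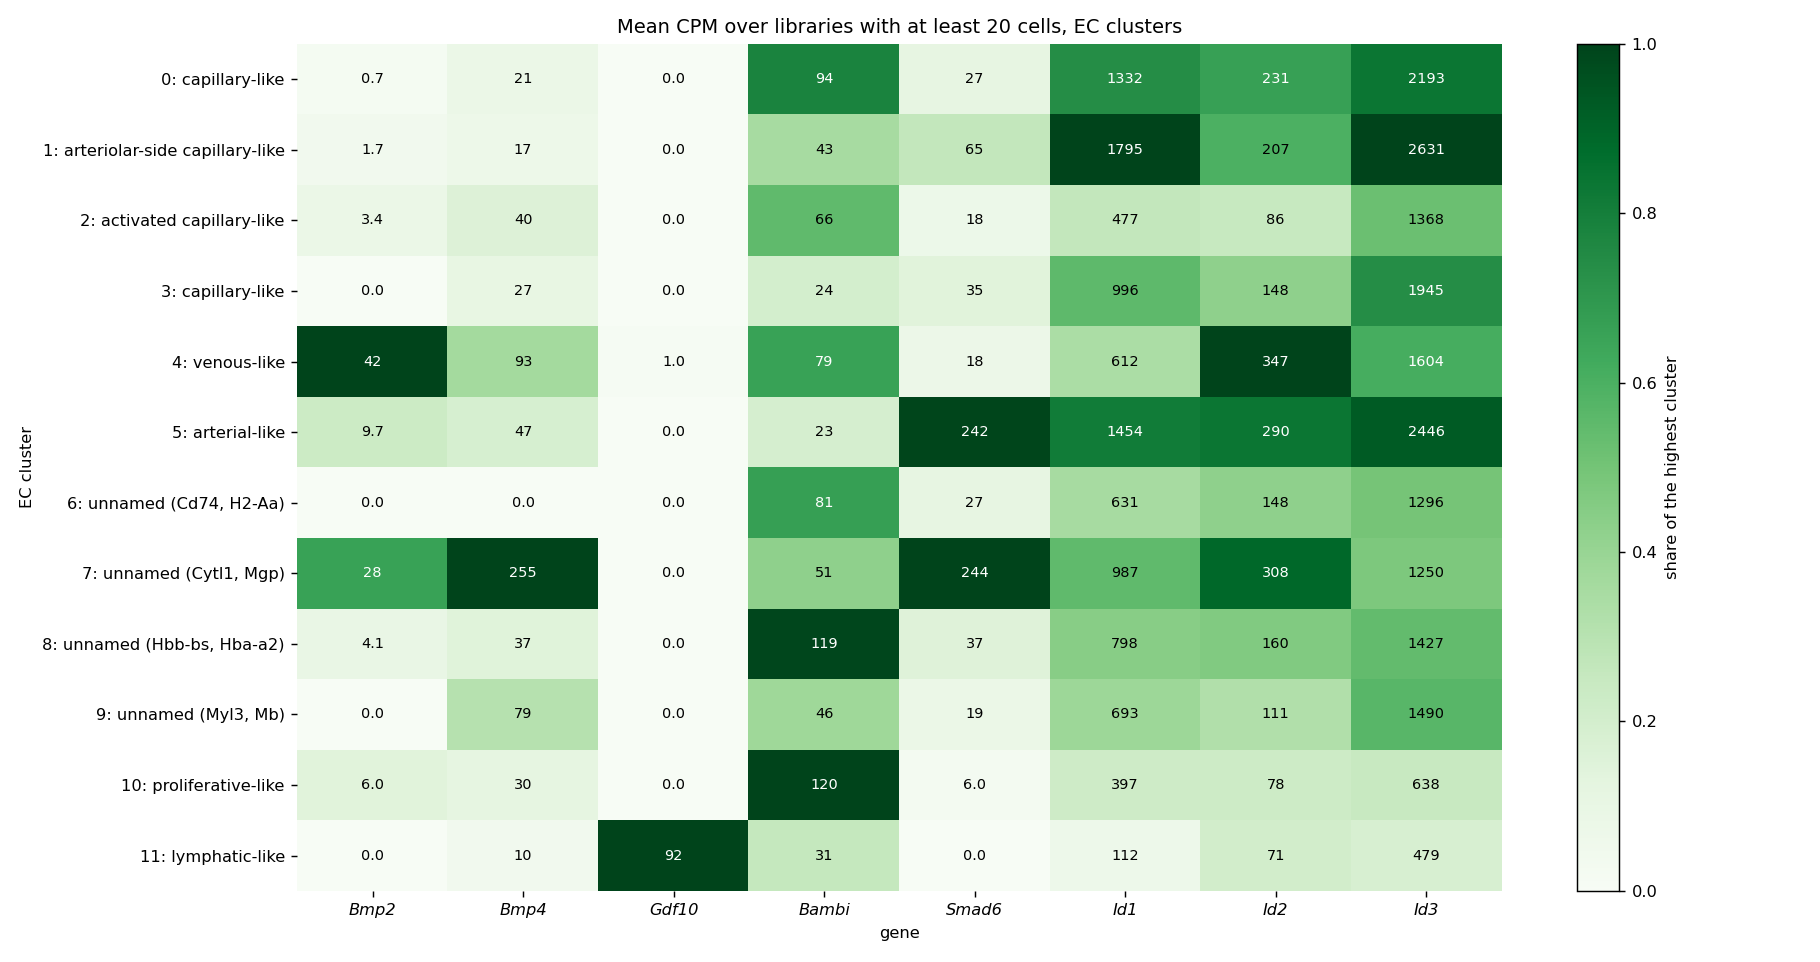
Mean CPM of 8 members (columns) in the 12 EC clusters (rows), with each library of at least 20 cells weighted equally; the colour gives the share of the highest cluster of that gene. Smad6 is highest in cluster 7 and the arterial-like cluster (244 and 242 CPM), Id1 in the arteriolar-side capillary-like cluster (1795 CPM) and Bmp2 in the venous-like cluster (42.5 CPM). The rows cover different libraries, all 3 for clusters 0 to 4. The arterial-like cluster covers the 2-week and 12-week libraries, and cluster 7 the healthy and 2-week ones.

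Cluster 7 and the arterial-like cells had the highest Smad6. In the latter it stood at 233 CPM at 2 weeks (64 UMIs in 139 cells) and 252 CPM at 12 weeks (16 UMIs in 38 cells), against 40.5 and 45.5 CPM in the other ECs of those libraries. The ratios were 5.74 (4.18 to 7.83) and 5.54 (2.64 to 11.5). The healthy library held 10 cells of that cluster, with 8 Smad6 UMIs. Cluster 7 stood at 125 CPM in the healthy library and 363 CPM at 2 weeks, 6.03-fold (3.62 to 9.78) and 7.21-fold (4.44 to 11.2) above the other ECs. In the activated capillary-like cluster Smad6 was below the other ECs, with ratios of 0.301 (0.139 to 0.586) and 0.423 (0.241 to 0.697) in the healthy and 2-week libraries.

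Id1 and Id3 were ordered along the capillary clusters. In the arteriolar-side capillary-like cluster Id1 stood at 1416, 1667 and 2303 CPM in the healthy, 2-week and 12-week libraries. It was 2.50-fold (2.26 to 2.77), 2.02-fold (1.86 to 2.19) and 1.92-fold (1.62 to 2.27) above the other ECs. In the activated capillary-like cluster, led by Apln, Mest and Pgf, it stood at 372, 475 and 583 CPM, with ratios of 0.469 (0.417 to 0.526), 0.454 (0.402 to 0.512) and 0.374 (0.262 to 0.519). Id3 followed the same order, at 2004, 2657 and 3232.5 CPM against 862, 1188 and 2055 CPM. The lymphatic-like cluster had the lowest Id1 of the 12, at 112 CPM (11 UMIs in 30 healthy cells), a ratio of 0.165 (0.0821 to 0.295) to the other ECs, and the lowest Id3, at 479 CPM.

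Bmp2, Bmp4 and Id2 were higher in the venous-like cluster than in the other ECs. In the venous-like cluster, led by Vwf and holding Vcam1, Selp and Nr2f2 among its leading genes, Bmp2 stood at 52.5 and 54.8 CPM in the healthy and 2-week libraries, against 6.66 and 2.11 CPM in the other ECs. The ratios were 7.89 (3.87 to 16.1) and 26.0 (10.5 to 77.0), and the 12-week library held 1 UMI there. Bmp4 stood at 120, 79.2 and 80.4 CPM, 2.43-fold (1.67 to 3.47) and 2.25-fold (1.51 to 3.29) above the other ECs in the healthy and 2-week libraries. Id2 was 2.01-fold above the other ECs in the healthy library (1.56 to 2.57) and at 12 weeks (1.29 to 3.03), and 1.27-fold at 2 weeks. Cluster 7 stood above the other ECs in the healthy library as well, 4.07-fold for Bmp2 (1.60 to 9.16), 1.85-fold for Bmp4 (1.098 to 2.95) and 3.30-fold for Id2 (2.53 to 4.24), and at 2 weeks its Bmp4 was 11.9-fold above them (7.45 to 18.3). Id1 was lower in the venous-like cells, with ratios of 0.633, 0.617 and 0.524. The higher Id2 was not seen in the 52 healthy cells gated as venous by markers. Id2 stood at 137 CPM in them (88.6 to 202), against 133 CPM in all healthy ECs. At 2 weeks that gate stood at 242 CPM, against 180 CPM in all ECs. Gdf10 in ECs came almost wholly from the lymphatic-like cluster, with 9 of the 10 UMIs of healthy ECs in 2 cells, 8 of them in 1 cell. A lymphatic marker gate did not give the same source. Its 22 healthy cells held 1 Gdf10 UMI, a ratio of 4.77 to the other ECs, against 271 for the cluster.

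The phase ratios were then taken inside clusters with at least 20 cells in both libraries and at least 20 UMIs. Id1 was above healthy in 6 of 7 clusters at 2 weeks and 5 of 5 at 12 weeks, and in each of those 11 the interval lay above 1. Its ratios ranged from 0.985 to 1.65 and from 1.57 to 2.31. Id3 was above healthy in 6 of 7 and 5 of 5 clusters, and Id2 in 5 of 7 and 5 of 5, with the interval above 1 in 4, 4, 3 and 2 of them. The exception for Id1 and Id3 at 2 weeks was cluster 7 (0.985 and 0.924).

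Smad6 had enough UMIs in 5 clusters at 2 weeks and in none at 12 weeks. Its 2-week ratio was 2.43 in the arteriolar-side capillary-like cluster (1.2 to 5.31), 2.52 in the activated capillary-like cluster (1.09 to 6.17), 2.91 in cluster 7 (1.58 to 5.34), 1.47 in capillary-like cluster 0 (0.663 to 3.32) and 0.696 in the venous-like cluster (0.274 to 1.77). The arterial-like cluster made up 0.959%, 8.04% and 13.2% of ECs in the 3 libraries, while cluster 7, which also held arterial markers and high Smad6, made up 8.25%, 1.39% and 4.86%. A gate on arterial markers held 384 of 1043, 545 of 1729 and 79 of 288 ECs, a share highest in the healthy library. Smad6 stood at 37.15, 77.8 and 165 CPM in that gate (49, 101 and 21 UMIs). The healthy interval (27.5 to 49.1) lay below both later ones (63.4 to 94.6 and 102 to 252). With each cluster held at its healthy share, a calculation chosen after seeing the data, the Smad6 ratio was 2.09 at 2 weeks over 7 clusters and 1.44 at 12 weeks over 5 clusters, neither of which includes the arterial-like cluster. The 2-week value includes cluster 7, where 24 cells held 23 Smad6 UMIs at 2 weeks (363 CPM, against 125 CPM in its healthy cells). The 12-week value also leaves out cluster 7, so it differs from the pooled ratio in the clusters covered as well as in their shares. The 12-week ratios of Id1, Id2 and Id3 became 1.81, 2.04 and 1.76. Bmp4 in ECs became 1.04 at 2 weeks, against 0.730 before, and in cluster 7 it stood at 99.96 CPM in healthy cells and 411 CPM at 2 weeks (26 UMIs in 24 cells).

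**Figure D4:**
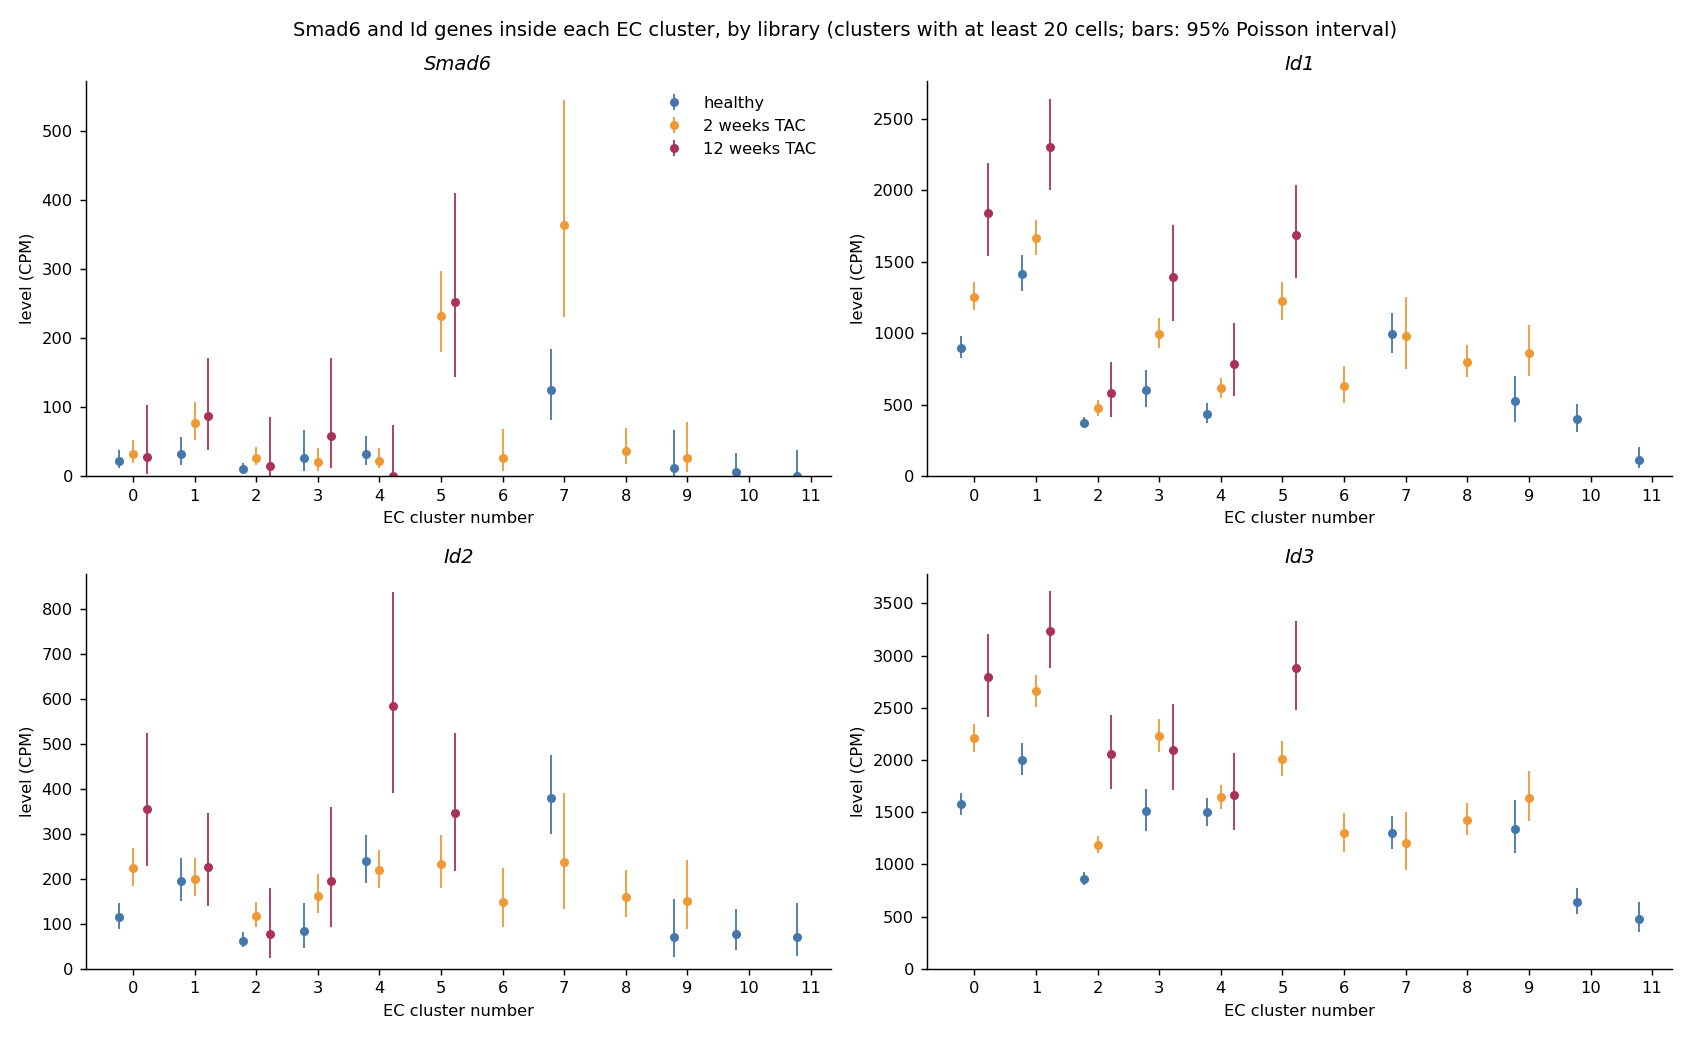
CPM (y axis) of Smad6, Id1, Id2 and Id3 in each numbered EC cluster (x axis) and library, for clusters with at least 20 cells in that library; bars are 95% Poisson intervals. Id1 at 12 weeks lies above healthy in all 5 clusters that both libraries fill, with ratios from 1.57 to 2.31.

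To place the secreted members, FBs went through that clustering too, and no FB cluster was given a cell type name. Gdf10 was highest in FB cluster 3, led by Inmt and Apod, at 93.7 CPM in the healthy library and 111 CPM at 12 weeks. The healthy ratio to the other FBs was 15.98 (9.48 to 27.9). At 2 weeks that cluster held 11 cells, and 4 of them held 25 of the 31 Gdf10 UMIs. The 12-week ratio to healthy inside the cluster was 1.19. Id2 was also high there, at 444 and 604 CPM, 2.24-fold (1.93 to 2.59) and 2.67-fold (1.97 to 3.60) above the other FBs.

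FB cluster 4, led by Wif1, Chad and Fmod, held the highest Bambi, Smad6 and Id3 of the FB clusters with at least 20 cells. Bambi stood there at 216 CPM in healthy and 305 CPM in 12-week cells, 3.42-fold (2.66 to 4.36) and 3.54-fold (2.26 to 5.55) above the other FBs. Smad6 was 4.90-fold above them in the healthy library (2.73 to 8.60), Bmper 2.53-fold (1.38 to 4.41) and Id3 1.70-fold (1.57 to 1.84). At 12 weeks this cluster held 25 of the 33 Bmp2 UMIs of FBs, at 177 CPM, against 67.4 CPM in its healthy cells, a ratio of 2.63 (1.48 to 4.65), and 1 FB of that library held 10 of the 33. In the healthy library Bmp2 was highest in clusters 2 (Tnxb, Hmcn2) and 5 (Basp1, Cd248 among its leading genes), at 118 and 113 CPM. In cluster 5 Bmper, Id2 and Id3 were low, at 2.27, 90.7 and 732 CPM.

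**Figure D5:**
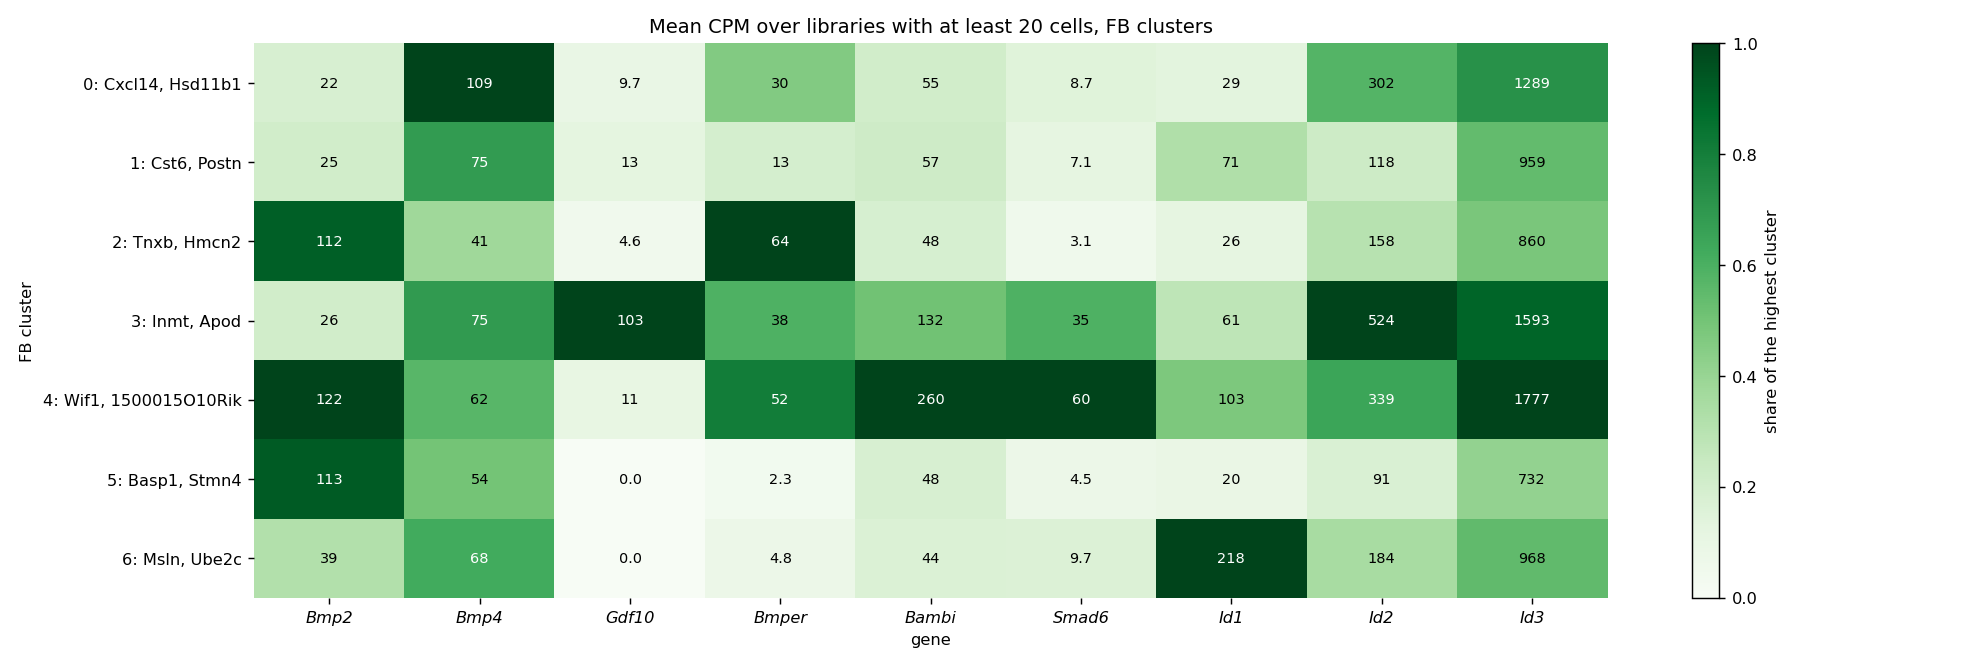
Mean CPM of 9 members (columns) in the FB clusters with at least 20 cells in any library (rows, named by their first leading genes), with libraries of at least 20 cells weighted equally; the colour gives the share of the highest cluster of that gene. Gdf10 stands at 103 CPM in cluster 3 and at most 12.7 CPM elsewhere, and Bambi at 260.5 CPM in cluster 4. Cluster 1 covers all 3 libraries, clusters 0, 2, 3 and 4 the healthy and 12-week ones, and clusters 5 and 6 the healthy one.

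The rest of the BMP pathway was read from a list of 47 further genes. In ECs 2 of 23 genes with enough UMIs were past 2-fold higher and 2 lower at 2 weeks, and 2 of 22 higher and 2 lower at 12 weeks, beside 9.99% and 17.1% of all genes counted either way. Those higher at 12 weeks were Eng, the endothelial co-receptor, at 552, 803 and 1109 CPM (12-week ratio 2.01, interval 1.82 to 2.22), and Hey1, a target shared with Notch, at 52.2, 111 and 139 CPM (2.67, 1.97 to 3.59). Hey1 is also among the arterial markers used to name clusters and to gate arterial ECs. The part of arterial cells in its ratio was not tested. Acvrl1, the ALK1 receptor, stood at 139, 138 and 268 CPM in ECs, a 12-week ratio of 1.92 (1.56 to 2.35), and Bmpr2 at 93.5, 115 and 129 CPM. Acvr2b, a type II receptor, was lower, at 23.3, 8.09 and 10.9 CPM. Smad1 was 0.536 of healthy at 12 weeks (0.354 to 0.784), which is under 2-fold. The ligands Bmp10 and Gdf2, the genes of BMP10 and BMP9, gave no UMI in any class. In FBs Id4, the fourth Id gene, stood at 29.2, 114 and 143 CPM, 3.91-fold (2.53 to 5.88) and 4.90-fold (3.69 to 6.49) above healthy, and Htra1, a secreted protease, was 0.334 of healthy at 2 weeks (0.181 to 0.564). Over all 47 genes the FB counts were 3 higher and 2 lower of 28 at 2 weeks and 1 higher and 1 lower of 27 at 12 weeks, beside 19.5% and 13.4% of all genes. Rgma, a BMP co-receptor, was among those higher in FBs at 2 weeks, at 30.6, 68.5 and 23.9 CPM (2-week ratio 2.24, interval 1.28 to 3.68), and the antagonist Chrd was lower there on 2 UMIs.

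In mural cells 1 of 25 genes of the list was higher and none lower at 2 weeks, and 2 were higher and 4 lower at 12 weeks, beside 16.6% and 23.7% of all genes. The lower ones were read on 5 UMIs or fewer each. Bmpr2, the type II receptor, stood at 129, 112 and 40.5 CPM there, and Smad7, the inhibitory SMAD of the TGF-β branch, at 111, 150.4 and 32.4 CPM, with 12-week ratios of 0.314 (0.101 to 0.745) and 0.292 (0.0787 to 0.763). Msx1, a BMP target in development, stood at 65.9, 51.6 and 24.3 CPM, a ratio of 0.369 (0.0747 to 1.11). In blood cells 2 of 10 were higher and 2 lower at 2 weeks and 3 of 12 higher and 2 lower at 12 weeks, beside 23.6% and 26.4% of all genes, among them Acvrl1, at 63.6, 51.7 and 25.4 CPM (12-week ratio 0.399, interval 0.179 to 0.776). The type I receptor Acvr1 was lower in 12-week ECs on 4 UMIs (0.474, interval 0.1249 to 1.28).

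Over the 12 groups of class and library, the genes whose log2(CPM + 5) lay closest to Id1 were Sept4, Tspan7 and Uaca (Pearson r 0.99, 0.98 and 0.97). For Smad6 they were Fzd4, St6galnac2 and Tm4sf1 (0.97, 0.96 and 0.95) and for Bmper Itgbl1, Vit and Pamr1 (0.99 each). For Bmp4 they were Ddah2, Tcf7l2 and Slc43a3 (0.98, 0.97 and 0.97) and for Id3 Crip2, Klc1 and Sparcl1 (0.99, 0.99 and 0.99). Less close neighbours were found for Bmp2, Bambi and Id2, with Fam110b, 1110046J04Rik and Dynll2 for Bmp2 (0.96, 0.91 and 0.86), H2afy2, Large and Rnf220 for Bambi (0.90, 0.90 and 0.89) and Smg9, Flcn and Slc25a28 for Id2 (0.88, 0.87 and 0.84). Among the members, Smad6 and Id3 stood at r = 0.91, Smad6 and Id1 at 0.88 and Id1 and Id3 at 0.87, while Id1 and Id2 stood at -0.52. These are descriptions over groups that share libraries and class differences.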

How the data were processed

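Each of the 3 samples was 1 droplet library of non-cardiomyocytes. The deposited matrices hold UMI counts per gene and cell that the authors made with Cell Ranger 2.0.0 on mm10, per the submitters' processing notes; they are not normalized. The per-sample matrices were read as deposited, cells under 200 genes were dropped (8, 8 and 10 cells), and rows that share a symbol were not merged. A cell entered a class when it held at least 3 marker UMIs and at least 70% of its marker UMIs came from that class. Scrublet (scanpy 1.11.5) marked 35, 2 and 5 cells as doublets, which were kept in the values reported and removed in an alternative.

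UMIs were summed per class and library and divided by all UMIs. Levels have exact Poisson intervals and ratios conditional binomial intervals at 95% (scipy 1.17.1), where a count of 0 was set at 3 counts. UMIs are molecules, but cells of a library are not replicates, so no p was computed. A ratio was counted past 2-fold with at least 20 UMIs over both groups (a bound from a count of 0 only on the side of that 0), and the code was tested on simulated data.

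ECs and FBs were clustered with Seurat 5.3.0 in R 4.3.3 (anchors over the libraries, 2000 variable features, 30 dimensions, Louvain resolution 0.8). Of these, 1978 features were kept after 22 members and pathway genes were dropped. A cluster was named when at least 3 markers of a list were detected (in at least 10% of its cells and at least 25% of the best cluster's share) and a marker stood among its 10 leading genes. Named genes were the 10 members, the genes of a fixed pathway list past 2-fold with at least 100 UMIs in 1 class, and the 3 genes most like each member with at least 100 UMIs (those for Gdf10 are not reported here). Other genes (Acvrl1, Bmpr2 and Smad1 in ECs, and leading genes of clusters) were chosen after their values were seen. The members and lists were chosen with earlier results of these data known. Alternatives were 2 other gates, 2 other cell filters, doublet removal, 2 other totals, centring on the median gene, 2 other UMI minimums, thinning to 1000 UMIs, and other resolutions, no integration, marker gates or single libraries for clusters.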

Additional observations from a re-analysis of the deposited data

Results flagged for a closer look

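A few ratios to the healthy library lay on opposite sides of 1 in different cell classes, each with a counting interval that did not include 1. With 1 library per phase the difference between classes was not tested, and no group held enough libraries to look for one apart from the rest.

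Bambi at 12 weeks was above healthy in FBs (1.71-fold) and blood cells (2.37-fold) and below it in ECs (0.513) and mural cells (0.291). In FBs it was 1.19 with clusters held at their healthy share, and in blood cells 13 of the 20 UMIs at 12 weeks lay in B cells, which were more frequent in that library. In ECs it was 0.657 with clusters held at their healthy share, and 1 of 4 cluster intervals lay below 1. The mural ratio was 0.790 as a thinned share. Id2 at 12 weeks was above healthy in ECs (2.43-fold) and FBs (1.30-fold) and below it in blood cells (0.687), whose makeup of gated cell types also differed between the libraries. Id2 at 2 weeks was above healthy in ECs (1.36-fold) and blood cells (1.36-fold) and below it in FBs (0.706). Id3 at 2 weeks was above healthy in ECs (1.42-fold) and mural cells (1.55-fold) and below it in FBs (0.873), on 98 FBs.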

How the results depend on the processing

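The 12-week mural ratios of Id1 and Id3, under 2-fold, were 0.978 and 0.922 as thinned shares. Of 595 ratios recomputed under the alternatives, 541 moved by less than their counting interval, 50 moved by more, and 4 that had been past 2-fold turned their direction. Bmp4 in mural cells at 2 weeks was 2.27 and Smad6 in mural cells at 12 weeks 1.95 with a gate of 5 marker UMIs and 90%. Id1 in blood cells at 12 weeks was 0.742 with a gate on fewer markers, and Smad6 in FBs at 12 weeks was 0.804 as a share of cells with a UMI after thinning. The EC ratios at 12 weeks stayed on 1 side under all 10 alternatives, from 1.42 to 2.27 for Id1, 1.72 to 2.54 for Id2, 1.16 to 2.02 for Id3, 1.44 to 3.13 for Smad6 and 0.419 to 0.657 for Bambi. The lowest Id values came from shares of thinned cells with a UMI. The lowest Smad6 value came from 5 clusters held at their healthy share, an alternative added after seeing the data that also leaves out both clusters highest in Smad6. The cause of these differences was not tested.

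The number of members past 2-fold differed by more than 1.5 times in 18 of 90 recounts. With the gate of 5 marker UMIs and 90% it was 0 in ECs at 2 weeks, 1 in FBs at 12 weeks, 0 in mural cells at 2 weeks and 1 in blood cells at 2 weeks. With the gate on fewer markers it was 0 in ECs at 2 weeks, 1 in blood cells at 2 weeks and 1 at 12 weeks. With cells over 10% mitochondrial UMIs removed it was 0 in ECs at 2 weeks, 1 in FBs at 12 weeks and 0 in mural cells at 2 weeks. With at least 500 genes per cell it was 1 in FBs at 12 weeks. With a mean over cells it was 0 in ECs at 2 weeks, 1 in FBs at 12 weeks and 1 in blood cells at 2 weeks. With at least 50 UMIs it was 0 in mural and 1 in blood cells at 2 weeks, and with no minimum 3 in ECs at 2 weeks and 5 in blood cells at 12 weeks. The cause was not tested beyond the fewer genes that a higher minimum leaves.

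Between EC clusters 19 of 47 values moved. Smad6 in arterial-like cells, 5.64-fold in the mean over libraries, was 2.74-fold with marker gates, and Bmp2 in venous-like cells, 7.92-fold, ran from 2.74 to 26.0. With marker gates Id2 in venous cells was 1.23-fold, against 1.79-fold, and Gdf10 in lymphatic cells 4.77-fold, against 271-fold. No library could be left out and no paired analysis was possible because each phase had 1 library. Depth limits Bmp6, Bmper outside FBs, and all members in the 70 and 39 mural cells and 98 FBs of the later libraries.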

Other observations

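Mural cells could be split by markers into 277 smooth muscle and 124 pericyte cells in the healthy library, 44 and 26 at 2 weeks, and 22 and 17 at 12 weeks. In healthy hearts Id1 stood at 324 CPM in smooth muscle cells (interval 290.0 to 362) and 466 CPM in pericytes (407 to 532), and Smad6 at 38.0 CPM (26.9 to 52.2) and 67.8 CPM (46.4 to 95.7). The Id1 intervals did not overlap and the Smad6 intervals did. The part of EC transcripts in these differences was not tested. Id3 in smooth muscle cells stood at 1273, 2421 and 2449 CPM in the healthy, 2-week and 12-week libraries, and both later intervals, from 2153 upward, lay above the healthy one. In pericytes Id3 stood at 1532, 1364 and 2215 CPM, so that the 2-week values of these cell types lay on opposite sides of their healthy levels. The pericyte interval at 2 weeks (1106 to 1664) included the healthy value.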
